A study of Bos indicus x Bos taurus with 17 samples.

Results

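The genes described here are the 10 genes of excitation-contraction coupling and of the calcium store of muscle that were chosen by symbol, namely RYR1, RYR3, CACNA1S, ATP2A1, ATP2A2, CASQ1, CASQ2, JPH1, JPH2 and STAC3. All 10 were found among the 21048 genes of the count tables. They were picked by symbol and not by a measured value, but earlier results of these data were known at the time. They were followed in skeletal muscle and liver of 6 F1 fetuses of Bos indicus (Nelore) and Bos taurus (Holstein) parentage at about day 105 of gestation. The Control-AI group held 2 fetuses (Control-AI 2 and 4), conceived by artificial insemination. The ART-Normal group held 4 fetuses (ART-Normal 1 to 4), produced in vitro by assisted reproduction and defined in the study by a body weight similar to that of controls. The labels name ART-Normal 4, which the methods of the study do not list. All 6 are labelled as healthy, and each gave 1 poly(A)-selected, strand-specific library per tissue, so the replicate is the fetus throughout. The labels do not say which muscle was sampled. Levels are given as CPM, that is, counts divided by the library total on a common scale, after TMM normalization, a scaling that corrects library totals for composition.

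Excitation-contraction coupling is the chain of events by which an action potential on the muscle fibre surface releases calcium from the sarcoplasmic reticulum. In skeletal muscle the voltage sensor in the surface tubules, the L-type channel whose pore subunit is encoded by CACNA1S, touches the release channel RYR1 directly, and junctophilins hold the facing membranes together. Pumps of the SERCA family return calcium to the store, where calsequestrins bind it. Liver cells also keep calcium in the endoplasmic reticulum, but release it mainly through inositol trisphosphate receptors.

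Total counts were 12433300 to 23578362 per muscle library and 18454088 to 43339598 per liver library. The labelled tissues carried their markers. The 12 skeletal muscle markers summed to 21759 to 32479 CPM in the 6 muscle libraries and to no more than 47.0 CPM in liver, where MYOD1 was at 0 in every library. Of 7 heart muscle markers, NPPB was at 0 in every muscle library, and NPPA and NKX2-5 stayed under 1 CPM. The list nevertheless summed to 168 to 310 CPM in muscle, most of it MYL7, an atrial light chain, at 149 to 287 CPM, with MYH6 at 12.5 to 40.1 CPM. Control-AI 2 stood apart from the other fetuses. A chi-square of counts per degree of freedom between the 2 controls was 62.8 in muscle and 346 in liver, against 16.7 to 31.9 and 25.9 to 55.7 among pairs of ART-Normal libraries. The 6 hepatocyte markers summed to 332252 CPM in its liver, against 47341 CPM in Control-AI 4 and 23517 to 39009 CPM in the ART-Normal livers. The markers were not raised alike there. AHSG was at 149373 CPM against 8232 CPM in Control-AI 4 liver, APOA2 at 5205 against 2860 CPM, and TTR at 2236 against 2240 CPM. In the muscle library of Control-AI 2 the 6 hepatocyte markers summed to 341 CPM, against 19.9 CPM in Control-AI 4 and 4.40 to 43.3 CPM in the ART-Normal group. With 2 controls, results between conception groups are given with and without each of them where that changes them. In pieces of whole tissue, fewer cells of a type and less RNA per cell cannot be told apart.

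All 10 genes were detected in every muscle library, and in liver no member other than ATP2A2 exceeded the 16.2 CPM that RYR1 reached in ART-Normal 3. The deposited tables list the gene span, introns included, and not the transcript length, so levels were compared between libraries for each gene and not between genes.

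**Figure D1:**
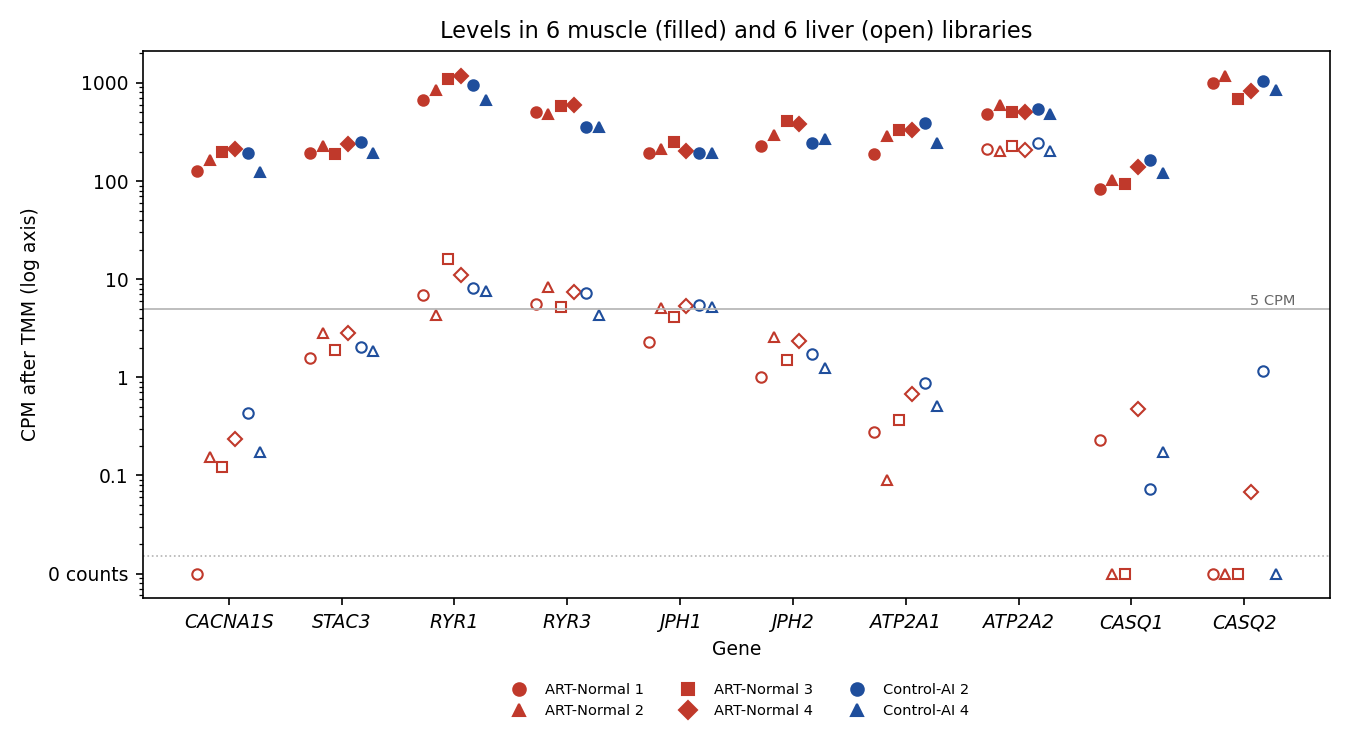
CPM after TMM of the 10 genes (x axis) in each library on a log axis, with filled symbols for muscle and open symbols for liver; red is ART-Normal, blue is Control-AI, and libraries with 0 counts are drawn on the lowest line. Muscle and liver symbols are separated for every gene, by the narrowest gap for ATP2A2, and the only CASQ2 symbol above 0.0677 CPM in liver is that of Control-AI 2.

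The voltage sensor and its adaptor were first compared between the tissues. CACNA1S (gene 100337204, chromosome 16, 79601782 to 79658546, minus strand, ARS-UCD1.2) reached 125, 164, 198 and 210 CPM in the muscles of the ART-Normal fetuses, in the order 1 to 4, and 195 and 124 CPM in those of the controls 2 and 4. Its liver libraries held 0 to 7 counts each, 27 in all. In the 4 fetuses with more than 3 liver counts, the muscle level was 449 to 1056 times the liver level, and in ART-Normal 1, with no liver count, it was at least 907 times higher, taking 3 counts as the floor for that library. STAC3 (gene 518234, chromosome 5, 56191678 to 56199668, plus strand), which couples the voltage sensor to the release channel and helps it reach the membrane, was at 195, 226, 187 and 241 CPM with assisted reproduction, against 250 and 192 CPM in control muscle. In liver it stayed between 1.57 and 2.82 CPM, a muscle level 80.2 to 124 times higher within a fetus. The 4 ART-Normal and 2 Control-AI values overlapped for both genes in both tissues.

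The release channels followed. RYR1 (gene 100139857, chromosome 18, 48236668 to 48365358, plus strand), the channel that the skeletal voltage sensor opens, was at 676, 851, 1098 and 1186 CPM with assisted reproduction, against 955 and 665 CPM in control muscle. RYR3 (gene 539899, chromosome 10, 28728178 to 29286652, minus strand), a second ryanodine receptor that is found in developing skeletal muscle, was at 510, 487, 580 and 601 CPM with assisted reproduction, against 357 and 356 CPM in control muscle. RYR1 thus overlapped between conception groups, while every ART-Normal muscle lay above both controls for RYR3. Both channels were also counted in each liver library. RYR1 ranged from 4.31 CPM (194 counts) in ART-Normal 2 to 16.2 CPM (401 counts) in ART-Normal 3, and RYR3 from 4.34 CPM in Control-AI 4 to 8.34 CPM in ART-Normal 2. The muscle level was 67.7 to 197 times the liver level for RYR1 and 49.3 to 112 times for RYR3.

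The junctophilins, which bridge the surface tubule and the store membrane, were next. JPH1 (gene 536811, chromosome 14, 37502881 to 37595438, minus strand) was at 193, 211, 248 and 201 CPM in ART-Normal and at 194 in both Control-AI muscles. JPH2 (gene 614651, chromosome 13, 72584144 to 72659231, minus strand) was at 229, 293, 412 and 380 CPM with assisted reproduction, against 243 and 266 CPM in controls. ART-Normal 1 was the lowest muscle for both genes, and ART-Normal 3 the highest. Liver held 2.30 to 5.43 CPM of JPH1 and 1.01 to 2.60 CPM of JPH2, so that muscle exceeded liver 35.8 to 83.7 times for JPH1 and 113 to 275 times for JPH2.

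The pumps differed most from each other in their tissue pattern. ATP2A1 (gene 518117, chromosome 25, 25929251 to 25946618, minus strand), which encodes the SERCA pump of fast fibres, was at 189, 288, 334 and 334 CPM with assisted reproduction, against 390 and 245 CPM in control muscle. Its liver level lay between 0.0890 and 0.869 CPM. ATP2A2 (gene 540568, chromosome 17, 54210738 to 54268644, plus strand), which encodes the pump of slow fibres and heart and, as another splice form, the housekeeping pump of most cells, was at 479, 591, 511 and 507 CPM with assisted reproduction, against 547 and 482 CPM in control muscle. Its liver level was 210, 200, 229 and 207 CPM with assisted reproduction, against 246 and 202 CPM in controls. The muscle level of ATP2A2 was therefore 2.22 to 2.95 times that of liver, and that of ATP2A1 448 to 3238 times, the last resting on 4 liver counts in ART-Normal 2. ATP2A1 was the only member whose span overlapped another gene, RABEP2 on the opposite strand, by 48 bases. The deposited counts sum over all forms of ATP2A2, so its splice forms were not separated.

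The calsequestrins bind calcium inside the reticulum. CASQ1 (gene 508394, chromosome 3, 9474930 to 9484581, minus strand), the form of fast fibres, was at 82.2, 103, 93.3 and 138 CPM with assisted reproduction, against 162 and 120 CPM in control muscle. CASQ2 (gene 528555, chromosome 3, 27540618 to 27611174, plus strand), the form of heart and slow fibres, was at 996, 1180, 689 and 823 CPM with assisted reproduction, against 1048 and 850 CPM in control muscle. Conception groups overlapped for both. The liver libraries held 24 counts of CASQ1 in all, of which 14 were in ART-Normal 4. CASQ2 had 0 liver counts in ART-Normal 1, 2 and 3 and in Control-AI 4, 2 counts in ART-Normal 4 and 16 counts in Control-AI 2. In the 4 fetuses without a liver count, muscle CASQ2 was at least 5683 times higher, against 905 times in Control-AI 2.

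The liver level of the members was set beside that of other muscle genes in the same fetus. In Control-AI 2 the liver level of CASQ2 was 0.111% of the muscle level, and the median of the 12 skeletal muscle markers in that fetus was 0.111%. In the other 5 fetuses that median was 0.00216% to 0.00711%, and CASQ2 was at 0% to 0.00823%. RYR1 was instead at 0.507% to 1.48%, RYR3 at 0.893% to 2.03%, STAC3 at 0.804% to 1.25% and JPH1 at 1.19% to 2.79% of the muscle level across all 6 fetuses. The highest of the 12 markers was DES, at 0.305% to 0.536%, and these 4 members lay above it in each fetus, Control-AI 2 included, as did ATP2A2 at 33.9% to 45.0%. CASQ2 in Control-AI 2 was level with the median. JPH2 was at 0.363% to 0.887%, and in ART-Normal 1 it lay below DES (0.443% against 0.536%). CACNA1S (0% to 0.223%), ATP2A1 (0.0309% to 0.223%) and CASQ1 (0% to 0.343%) had lower shares in liver. The part of muscle RNA in the liver libraries was not tested further.

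All 10 members passed the filter on low values (at least 5 CPM before TMM in every library of a group) in the comparison of tissues. Only RYR1, RYR3 and ATP2A2 did so through liver as well. The filter favoured a call for the other 7. Of 1619 genes that passed through muscle alone, 1548 were called higher, so the calls of these 7 members are not counted as a result. RYR1, RYR3 and ATP2A2 were each called higher in muscle and did not overlap between tissues. Among the 10076 genes that passed in both tissues, 35.8% were called higher and 27.4% lay above liver without overlap (edgeR quasi-likelihood test, Benjamini-Hochberg adjusted p of 0.05 or lower). For these 3 genes the log2 fold change of muscle over liver was 1.25 ± 0.10 for ATP2A2, 6.16 ± 0.20 for RYR3 and 6.66 ± 0.39 for RYR1. These are SE over 12 libraries of 6 fetuses, with no term for the fetus. The adjusted p-values of the 3 genes in the edgeR quasi-likelihood test were 8.12e-08, 1.27e-11 and 2.66e-09. With a term for the fetus the SE were 0.08, 0.18 and 0.25, and the edgeR adjusted p-values were 9.05e-07, 9.37e-09 and 3.24e-08. Among the other members, without that term, JPH1 stood at 5.41 ± 0.20 and CACNA1S at 9.70 ± 0.34. CASQ2, fitted at 13.17 from 18 liver counts, is better read from the bound above.

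The genes around this machinery, 56 in 8 lists chosen by role, were compared in the same way. Of 48 tested, 29 passed the filter in both tissues, and of these 15 were higher in muscle, 11 were lower and 3 did not pass the test, beside 35.8% higher and 39.6% lower among all genes that passed in both (edgeR). A further 17 passed through muscle alone and 2 through liver alone, so the filter itself favoured a call for those 19. The counts by list that follow leave them out. Among genes that passed in both tissues, 5 of 6 triad and reticulum proteins were higher in muscle and 1 was lower. Of 2 voltage sensor subunits and adaptors 1 was higher and 1 lower. The release channels and their binding proteins were lower in muscle in 5 of 9 genes and higher in 3. The genes of store-operated entry were higher in 3 of 5, those of calcium extrusion at the surface in 2 of 3 and the calcium binding proteins in 1 of 3. ATP2A3 was lower, while the small regulators of the pump and the surface excitation genes SCN4A and CLCN1 passed through muscle alone. TRDN, which anchors calsequestrin to the release channel, had no count in any of the 6 liver libraries and was at 34.3 to 77.4 CPM in muscle, at least 158 times higher in each fetus. SLN, a small inhibitor of the pump, had 4 counts in Control-AI 2 liver and none in the other 5, where muscle was at least 1943 times higher. CAV3, the muscle caveolin, had 1 liver count, also in Control-AI 2, and was at 72.7 to 96.5 CPM in muscle.

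The genes that were lower in muscle included other calcium pumps, of which ATP2B2 passed the filter through liver alone. ATP2B2, a plasma membrane calcium pump, had a log2 fold change of -3.46 ± 0.29 and ATP2A3, the third SERCA gene, of -2.03 ± 0.16. ATP2A3 was at 6.86 to 16.7 CPM in muscle and 37.0 to 49.4 CPM in liver, the opposite direction from ATP2A1 and ATP2A2. FKBP1B, which encodes a small protein that binds ryanodine receptors and also passed through liver alone, stood at -2.01 ± 0.51. It was at 17.8 CPM in Control-AI 2 muscle and at 0.666 to 1.58 CPM in the other 5, and its log2 fold change was -3.04 without Control-AI 2.

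Pairs of related genes were then compared as log2 ratios within a library, which, apart from the pseudocount of 0.5 CPM, do not depend on the scaling of that library. ATP2A1 over ATP2A2 was -1.34, -1.04, -0.62 and -0.60 in muscle of ART-Normal 1 to 4 and -0.49 and -0.98 in Control-AI 2 and 4, against -8.41 to -7.46 in liver. CASQ1 over CASQ2 was -3.59 to -2.57 in muscle and -1.54 to 0.78 in liver, with the lowest liver value in Control-AI 2. JPH1 over JPH2 was lower in all 6 muscles, from -0.92 to -0.25, than in all 6 livers, from 0.86 to 1.71. The sign of a ratio is not read as which gene is more abundant, since transcript lengths were not available. RYR1 over RYR3 overlapped between the tissues, at 0.41 to 1.42 in muscle and -0.88 to 1.56 in liver.

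The difference of muscle minus liver within a fetus averaged 7.02 for the pumps, -3.05 for the calsequestrins, -1.71 for the junctophilins and 0.50 for the ryanodine receptors, on the log2 scale. In each of the first 3 pairs all 6 fetuses differed in the same direction, with p = 0.0312 in an exact two-sided sign-flip permutation test, the smallest p that 6 fetuses allow. After adjustment over the 12 ratio tests none passed (adjusted p = 0.125 for these 3 in the exact permutation test). The calsequestrin ratio in liver rests on the pseudocount of 0.5 CPM, since CASQ2 had no count in 4 of the 6 livers, and the pump ratio depends on it too, with liver ATP2A1 at 0.0890 to 0.869 CPM. With a pseudocount of 1 or 0.1 CPM the mean difference was 6.39 or 7.91 for the pumps, -3.00 or -3.36 for the calsequestrins and -1.55 or -1.89 for the junctophilins.

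**Figure D2:**
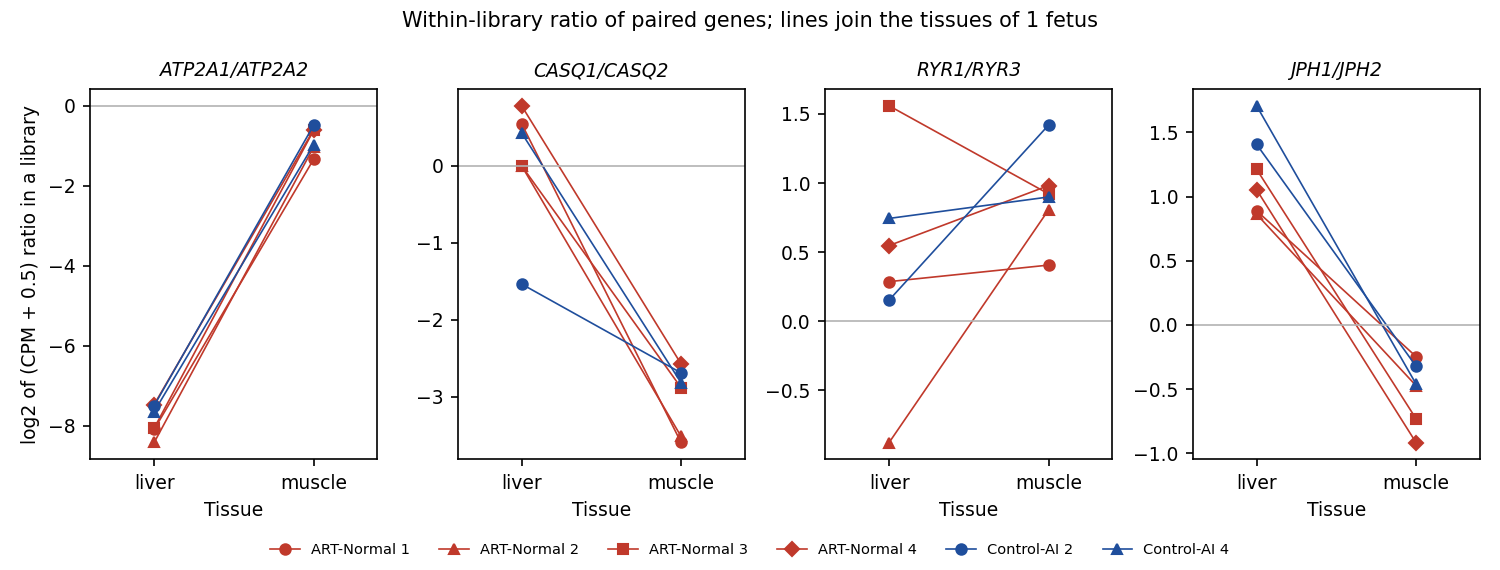
Log2 ratio of (CPM + 0.5) of the first gene over the second (y axis, own scale per panel) in liver and muscle, with a line joining the tissues of 1 fetus; red is ART-Normal and blue is Control-AI. The JPH1/JPH2 ratio is lower in muscle than in liver in all 6 fetuses, and its liver values in the 4 ART-Normal fetuses lie below those of both controls.

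The question of whether conception by assisted reproduction was accompanied by a difference in these genes was asked next in muscle. None of the 10 members passed the test, beside 1 of 11695 genes (0.00855%, edgeR quasi-likelihood test with Benjamini-Hochberg adjustment). That gene was ANKRD1, a stress-responsive muscle protein, which was lower in ART-Normal (log2 fold change -2.05 ± 0.19, edgeR adjusted p = 0.00553) and is named here after its value was seen. At an unadjusted p under 0.05 there were 1075 genes (9.19%), of which RYR3 was the only member. DESeq2 called 106 genes and edgeR's likelihood ratio test 120.

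RYR3 had the largest estimate of the 10. It averaged 544 ± 54.5 CPM (SD, n = 4) in ART-Normal and 357 CPM in the 2 controls, which differed from each other by less than 1 CPM. The groups did not overlap for RYR3 alone among the 10 members, beside 16.0% of all genes tested (8.15% with ART-Normal higher). Its log2 fold change was 0.62 ± 0.15, with an adjusted p of 0.314 in the edgeR quasi-likelihood test. Under DESeq2 the value was 0.61 with an adjusted p of 0.0101, and RYR3 passed in no other alternative that kept both controls. Without Control-AI 4 the value was 0.63 and without Control-AI 2 it was 0.60, each resting on a lone control. The estimate stayed between 0.57 and 0.66 in all 16 alternatives, whereas the call did not hold. The alternative with ART-Normal 1 to 3 only is the same fit as that without ART-Normal 4, and both are among the 16.

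CASQ1 lay on the other side. It was at 104 ± 24.2 CPM (SD, n = 4) in ART-Normal and at 162 and 120 CPM in the controls, with ART-Normal 4 (138 CPM) between them, and its log2 fold change was -0.44 ± 0.20 (edgeR adjusted p = 0.551). The estimate moved to -0.22 when Control-AI 2 was left out and to -0.62 when Control-AI 4 was. JPH2 had 0.37 ± 0.22, RYR1 0.24 ± 0.24, JPH1 0.14 ± 0.14 and CACNA1S 0.13 ± 0.23, with the groups overlapping in each. ATP2A2 (0.03 ± 0.15), CASQ2 (-0.03 ± 0.22), STAC3 (-0.05 ± 0.16) and ATP2A1 (-0.14 ± 0.24) lay within 1 standard error of 0, as did RYR1 and CACNA1S. Of the members, RYR1, RYR3, JPH1, JPH2 and CASQ1 kept the sign of the estimate in all 16 alternatives, and the other 5 did not. With 2 controls, a difference of the size of these standard errors was not detectable.

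**Figure D3:**
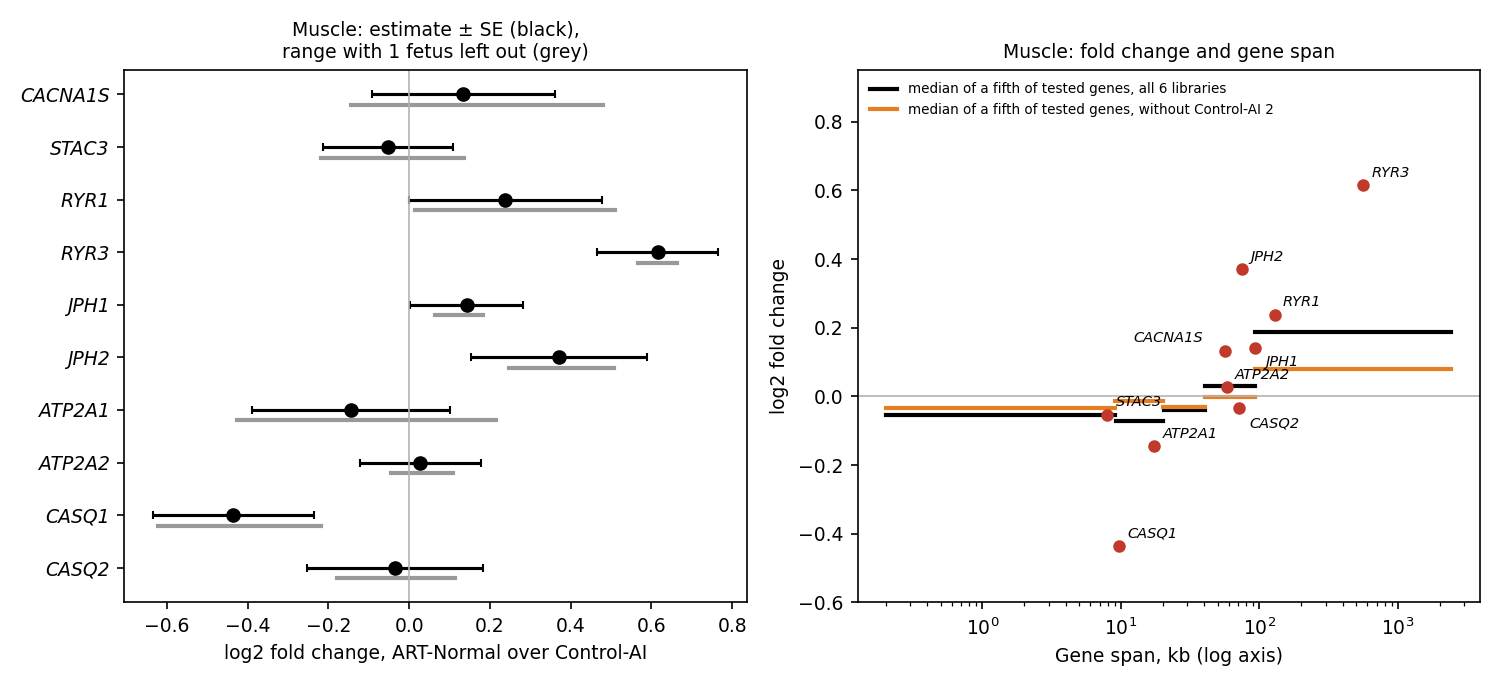
Left, log2 fold change in muscle (ART-Normal over Control-AI) for the 10 genes, with SE bars in black and the range of the estimate with 1 fetus left out in grey; right, the same estimates (red) against gene span in kb on a log axis, with the median of each quintile of all tested genes by span in black and without Control-AI 2 in orange. RYR3, at 0.62, has the longest span of the 10 and CASQ1, at -0.44, a short one.

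The estimates of the 10 members in muscle followed the length of the gene. STAC3, CASQ1 and ATP2A1, the shortest spans (7991, 9652 and 17368 bases), had estimates below 0, and the 3 longest, RYR3 (558475 bases), RYR1 (128691 bases) and JPH1 (92558 bases), above 0. Spearman's rho between span and estimate was 0.88 over the 10 genes, which share libraries and controls, and 0.54 without Control-AI 2. Over all 11695 genes tested it was 0.33, with 0.17 without Control-AI 2 and 0.34 without Control-AI 4. In liver the value over all genes tested was 0.25, with 0.39 without Control-AI 2 and 0.11 without Control-AI 4. From the shortest to the longest quintile of genes, the median log2 fold change in muscle was -0.05, -0.07, -0.04, 0.03 and 0.19. Without Control-AI 2 it was -0.03, -0.01, -0.03, -0.00 and 0.08. RYR3 is longer than 98.7% of the genes tested, and its own estimate without Control-AI 2 was 0.60, beside the 0.08 of the longest quintile. The part of gene span in the members' differences was not tested, and this relation was looked for after the data were seen.

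The spread between fetuses differed widely among the members. Over the 6 muscle libraries the coefficient of variation was 8.21% for ATP2A2, 10.3% for JPH1 and 12.8% for STAC3, and 19.0% to 25.7% for the other 7, with CASQ1 the highest. RYR1, CACNA1S and ATP2A1 varied together across fetuses. Each was low in ART-Normal 1 and Control-AI 4 and higher in ART-Normal 3, ART-Normal 4 and Control-AI 2. RYR3 set the controls apart, and CASQ2 was highest in ART-Normal 2 and lowest in ART-Normal 3.

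**Figure D4:**
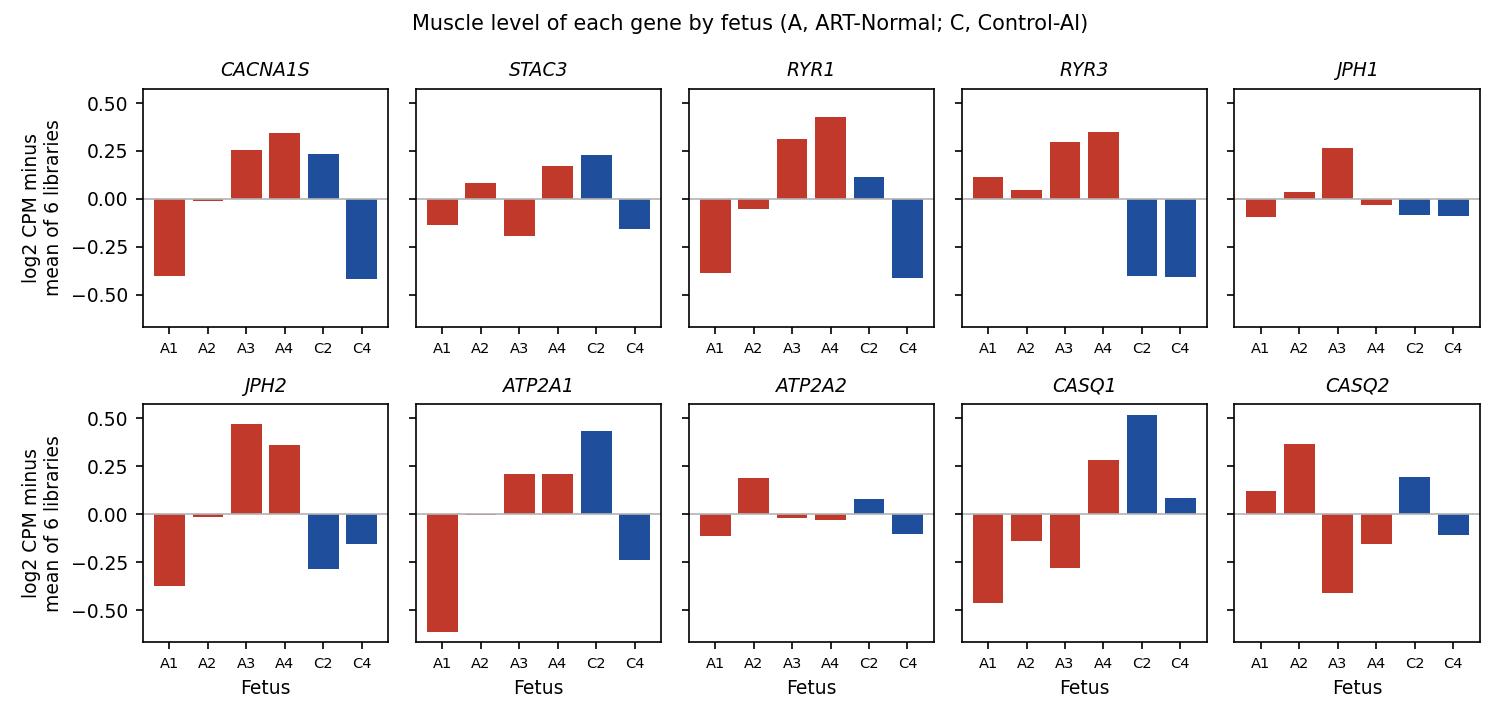
Log2 CPM of each gene in muscle minus its mean over the 6 libraries (y axis) for ART-Normal 1 to 4 (A1 to A4, red) and Control-AI 2 and 4 (C2, C4, blue). CACNA1S and RYR1 show nearly the same pattern, with A1 and C4 low, while both controls are below 0 for RYR3.

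The mean of these centred values over the 10 genes was -0.23, 0.05, 0.09 and 0.19 for ART-Normal 1 to 4 and 0.10 and -0.20 for Control-AI 2 and 4. The Pearson correlation of a member with that mean, of which it is itself a part, was 0.98 for CACNA1S, 0.95 for RYR1 and 0.90 for ATP2A1. It was 0.38 for RYR3 and -0.15 for CASQ2. Among the 11685 other genes, those whose pattern over the 6 muscle libraries was most like the mean included MAP2K1 (r = 0.996), ELK1 (0.995), GAS2L2 (0.990) and SDC4 (0.989), and 45 genes reached 0.95. The summed skeletal muscle markers were also lowest in ART-Normal 1 (21759 CPM) and next lowest in Control-AI 4 (26875 CPM). Not every marker followed that sum, since MYH7 was highest in Control-AI 4. The part of these markers in the shared pattern was not tested.

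Of the genes around the members, 46 were tested between conception groups in muscle and none was called. The median log2 fold change of the 46 was 0.15, against 0.00 for all genes tested, with 32 above 0. In the longest quintile of genes by span 15 of 16 were above 0, and in the 3 shortest quintiles 12 of 24. The median of those 16 was 0.23, beside 0.19 for all genes of that quintile. The share above 0 among all genes of a quintile was not taken, so these counts are not read as a result about the list. The 3 smallest unadjusted p-values belonged to TRDN, ITPR2 and SLC8A3. TRDN was at 65.7, 68.5, 77.4 and 71.4 CPM in ART-Normal and at 34.3 and 60.7 CPM in Control-AI 2 and 4 (log2 fold change 0.57 ± 0.20, edgeR adjusted p = 0.426). ITPR2, an inositol trisphosphate receptor, was at 66.5 to 86.6 CPM in ART-Normal and at 38.2 and 65.1 CPM in the controls (0.53 ± 0.21, edgeR adjusted p = 0.472).

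In both genes the lower control was Control-AI 2, and the other lay close to the ART-Normal range. Without Control-AI 4 the log2 fold changes were 1.06 for TRDN and 0.99 for ITPR2, and without Control-AI 2 they were 0.21 and 0.19. Each of these fits rests on a lone control. SLC8A3, a sodium-calcium exchanger, was at 59.6 to 83.4 CPM in ART-Normal and at 47.4 and 57.3 CPM in the controls (0.45 ± 0.18, edgeR adjusted p = 0.477). RYR3 thus differed from TRDN and ITPR2 in that its 2 controls were level.

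In liver, 3 members could be tested, and none was called, as was the case for all 11304 genes (0%, edgeR quasi-likelihood test with Benjamini-Hochberg adjustment). At an unadjusted p under 0.05 there were 948 genes (8.39%), none of them a member, while DESeq2 called 56 genes and edgeR's likelihood ratio test 89. Set over Control-AI, ART-Normal had a log2 fold change of 0.29 ± 0.45 for RYR1, 0.21 ± 0.30 for RYR3 and -0.09 ± 0.14 for ATP2A2, and the groups overlapped for all 3, beside 18.4% of all genes whose groups did not. RYR3 stood at 0.63 when Control-AI 2 was left out and at -0.13 when Control-AI 4 was. ATP2A2, with 3394 to 9005 counts per liver library, had a coefficient of variation of 8.30% in liver, close to its value in muscle.

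Of the 31 surrounding genes tested in liver, none was called. SELENON, a reticulum protein that acts on the release channel and the pump, had the smallest unadjusted p (0.0126, edgeR adjusted p = 0.514), at 24.4 to 29.4 CPM in ART-Normal and at 40.7 and 32.7 CPM in Control-AI 2 and 4. It was likewise at 81.4 to 95.3 CPM in ART-Normal muscle and at 133 and 97.1 CPM in the muscle of the same controls. Its log2 fold change was -0.49 ± 0.16 in liver and -0.37 ± 0.15 in muscle. Without Control-AI 4 these were -0.64 and -0.56, and without Control-AI 2 they were -0.31 and -0.14. FKBP1B was at 7.37 to 14.6 CPM in ART-Normal livers and at 25.2 and 11.4 CPM in the controls (log2 fold change -0.87 ± 0.35, edgeR adjusted p = 0.561). Without Control-AI 4 it was -1.34 and without Control-AI 2 it was -0.18. STIM2, which senses the filling of the store, was at 20.1 to 25.3 CPM in ART-Normal livers and at 18.0 and 18.7 CPM in the controls (0.32 ± 0.17, edgeR adjusted p = 0.59).

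No member and none of 12923 genes was called in the test of whether the difference between conception groups was itself different in muscle and liver (0%, edgeR quasi-likelihood test). At an unadjusted p under 0.05 there were 717 genes (5.55%), DESeq2 called 37 and edgeR's likelihood ratio test 98. The member with the lowest p was CASQ2, with an interaction of 4.38 ± 1.45 on the log2 scale (edgeR adjusted p = 0.722). This value rests on the 16 liver counts of Control-AI 2, and without that fetus it was -2.01. Without Control-AI 4 it was 5.55, and with all fetuses the likelihood ratio test gave an edgeR adjusted p of 0.0169. For RYR3 the interaction was 0.38 ± 0.31 (edgeR adjusted p = 0.956), so a larger difference in muscle than in liver was not shown. Among the surrounding genes the smallest p-values were those of MRLN (3.08 ± 0.85), SLN (4.77 ± 1.55) and CACNG1 (3.51 ± 1.38), which had 14, 4 and 2 liver counts in all. All liver counts of SLN and CACNG1 were in Control-AI 2, so that without it no liver count was left to estimate their interaction, and that of MRLN was 3.43. Without Control-AI 4 the interaction of SLN was 6.32.

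No ratio of related genes passed the test between conception groups in either tissue. In muscle the ART-Normal mean minus the Control-AI mean was -0.17 for ATP2A1 over ATP2A2, -0.39 for CASQ1 over CASQ2, -0.38 for RYR1 over RYR3 and -0.20 for JPH1 over JPH2, with p = 0.267 to 0.6 in exact permutation tests of 4 against 2 fetuses. In liver JPH1 over JPH2 was 0.89, 0.86, 1.21 and 1.05 in ART-Normal and 1.41 and 1.71 in Control-AI 2 and 4. Both controls thus lay above every ART-Normal liver, a difference of -0.55 with an exact permutation p of 0.0667, the smallest that this design allows, and an adjusted p of 0.2. Behind it are 50 to 231 counts of JPH1 and 22 to 117 counts of JPH2 per liver library.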

How the data were processed

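The authors deposited raw read counts in 1 table per tissue, not normalized, made per the labels from poly(A)-selected, strand-specific 150 bp paired-end libraries. The submitters' processing notes name FastQC 0.11.7, HISAT2 2.1.0, SAMtools, Cufflinks, featureCounts, edgeR 3.24.3 and the build ARS-UCD1.2; the strand setting in counting is not given in the sources used here. All 21048 listed lengths equal the gene span. Of the 13 count columns in a table, 6 were matched to samples, and 14 in both were not used; 5 kidney samples were not analysed.

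Counts were tested with the quasi-likelihood F-test of edgeR 4.0.16 in R 4.3.3 (TMM, a minimum of 5 CPM before TMM in every library of a group, Benjamini-Hochberg adjustment over all genes tested, threshold 0.05). Tissues were compared over 12 libraries in 4 groups, and conception groups within a tissue over 6. Standard errors were derived from the F statistic. Ratios used CPM plus 0.5, exact two-sided permutation tests and adjustment over 12 tests. All 10 members are named, and of the surrounding genes up to 3 with the largest rise and fall among those called, or the 3 with the smallest p. Of 56 surrounding genes 55 were in the tables. Symbols are those of the tables. The members and lists were chosen with earlier results of these data known. The liver and muscle of a fetus come from the same animal. Deviations from the group means correlated with r = 0.21, 0.04, 0.08 and 0.31 in ART-Normal 1 to 4. The 2 controls mirror each other around their mean, so they give a single value, r = 0.36. The block of the fetus is an alternative. Alternatives were other scalings, filters, tests (DESeq2 1.42.0) and leaving out each fetus. The procedure was tested on simulated data with 200 changed genes. Python 3.11.15, pandas 2.3.3, SciPy 1.17.1 and Matplotlib 3.10.9 made tables and plots.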

Additional observations from a re-analysis of the deposited data

How the results depend on the processing

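RYR1, RYR3 and ATP2A2 were called higher in muscle under each scaling, test and left-out fetus tried. So were the 7 members that passed the filter through muscle alone, whose calls are not counted as a result. The exception was that requiring 10 counts in every library left 6 members to test, of which 6 were called. With the replicate block of the fetus 10898 genes were called in place of 10343 and no member changed. Scaling by library size alone moved the median of all genes by 0.18 between tissues, by 0.20 between conception groups in liver and by -0.20 in the interaction.

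Between conception groups in muscle, 1 gene was called, against 120 with the likelihood ratio test, 106 with DESeq2, 0 with ART-Normal 1 to 3 only, 90 with a replicate block on the label numbers and 0 with both tissues in one fit; with 1 fetus left out it was 0 to 1327, the highest without Control-AI 4. Members called were 1 (RYR3) with DESeq2 and 0 to 1 with 1 fetus left out. In liver, 0 genes were called, against 8 by library size alone, 89 with the likelihood ratio test, 56 with DESeq2, 2 with ART-Normal 1 to 3 only, 6 with the replicate block, 4 with both tissues in one fit and 0 to 830 with 1 fetus left out, again highest without Control-AI 4. In the interaction, 0 genes were called, against 98 with the likelihood ratio test, 37 with DESeq2 and 0 to 232 with 1 fetus left out, and members called were 1 (CASQ2) with the likelihood ratio test and 0 to 1 with 1 fetus left out. The cause was not tested. Where a control is left out, the lone control is assumed to vary like the other group.

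No pairing of fetuses of different conception groups by label number was seen. Deviations of fetuses 2 and 4 correlated with r = 0.01 and -0.11 in liver and 0.00 and -0.13 in muscle. The 2 values of a tissue share the same control deviations with opposite sign, so the check is weak and cannot exclude a pairing. With that replicate block RYR3 in muscle was 0.61 (edgeR adjusted p = 0.653). Members with estimates near 0 changed sign in muscle: ATP2A2 under upper quartile scaling (-0.00297), CASQ2 with ART-Normal 1 to 3 only (0.018), and ATP2A1 (0.010), CASQ2 (0.066) and STAC3 (0.096) with the replicate block. With 1 fetus left out the ranges were -0.43 to 0.21 for ATP2A1, -0.046 to 0.11 for ATP2A2, -0.18 to 0.11 for CASQ2, -0.22 to 0.14 for STAC3 and -0.14 to 0.48 for CACNA1S. In liver, ATP2A2 was 0.14 by library size alone and RYR1 -0.17 with the replicate block, and with 1 fetus left out the ranges were -0.087 to 0.54 for RYR1, -0.13 to 0.63 for RYR3 and -0.22 to 0.077 for ATP2A2. In the interaction, ATP2A2 was -0.13 by library size alone, CASQ1 0.58 with ART-Normal 1 to 3 only and RYR1 0.10 with the block of the fetus, and the ranges were -0.26 to 0.24 for RYR1, -0.051 to 0.72 for RYR3, -1.72 to 0.58 for CASQ1, -2.01 to 6.47 for CASQ2 and -0.38 to 0.28 for JPH2.

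The tissue differences of the ratios were the same without the replicate block (7.02, -3.05 and -1.71). The exact permutation adjusted p was then 0.00866, but that test shuffles the 12 libraries as if independent, although each fetus gave both tissues. It is therefore not counted as a pass, beside the paired sign-flip permutation test (adjusted p = 0.125). Between conception groups, leaving out 1 fetus gave -0.41 to 0.077 for ATP2A1 over ATP2A2 in muscle, and -0.095 to 1.87 for CASQ1 over CASQ2 and -0.46 to 0.35 for RYR1 over RYR3 in liver. The comparison with gene span, the folds within a fetus and the split by the tissue in which a gene passed the filter were added after seeing the data.

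Limits: 2 controls, of which Control-AI 2 stands apart, bound every comparison of conception groups, and the smallest exact permutation p there is 0.0667. Counts over gene spans take in reads from introns. Folds over liver of CACNA1S, ATP2A1, CASQ1 and CASQ2 rest on 0 to 20 liver counts per library.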
